A study of Mus musculus with 6 samples.

Results

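Transcription factors that pattern the midbrain, the isthmus and the floor plate were examined in immortalized neural precursor-like cells with and without Lgi1, a gene for a secreted neuronal protein. The set was named by gene symbol and holds 10 genes (En1, En2, Foxa1, Foxa2, Pax2, Pax5, Lmx1a, Lmx1b, Otx2 and Gbx2). A gene was measured where the platform annotation gave a probe set that symbol alone, and 9 of the 10 were found among 19938 genes of the table. Lmx1a was not analysed here. Each of the 9 had a single probe set.

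The knock-out group had 3 arrays of cells with a homozygous deletion of Lgi1, and the wild-type group had 3 arrays of cells with the intact gene. Both came from embryo brain of strain C57BL/6J at embryonic day 13.5, and the immortalized cells of both groups were kept in RPMI with 1% FBS. Total RNA of each sample was hybridized to its own array of the Affymetrix Mouse Gene 1.0 ST type. The titles name biological replicates, but not how many embryos or independently immortalized lines stand behind them. The p-values therefore cover the spread between these samples only, which may be technical.

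The isthmus is the constriction between midbrain and hindbrain. It forms where Otx2, expressed in the forebrain and midbrain, meets Gbx2, expressed in the anterior hindbrain, and it signals to both sides through the secreted factors Fgf8 and Wnt1. Pax2, Pax5, Lmx1b and the engrailed genes En1 and En2 are switched on around this border and maintain it. The floor plate is the ventral midline of the neural tube, where Shh induces the forkhead factors Foxa2 and Foxa1. In the midbrain these act with Lmx1a and Lmx1b in the progenitors of dopaminergic neurons, and the engrailed genes keep those neurons alive in mice.

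The labelled cell type was checked first, since it bears on every level given here. Nes, an intermediate filament of neural progenitors, had log2 values of 8.53, 8.76 and 8.87 on the knock-out arrays and 10.53, 10.88 and 10.79 on the wild-type arrays. Sox2, a progenitor transcription factor, had a mean of 5.35 in knock-out and 11.26 in wild-type cells, so this defining marker of the label was near background in the knock-out group. Not every progenitor marker fell. Sox9, a progenitor transcription factor also used in cartilage, rose by 2.56 (means 10.61 in knock-out and 8.05 in wild-type cells), and the intermediate filament Vim was bright in both genotypes and did not pass (means 13.52 in knock-out and 13.53 in wild-type cells, limma adjusted p = 0.929). Receptor genes for odours and pheromones (Olfr and Vmn symbols, 1190 in all), expected only in the nose, gave a gauge of background. They had a median log2 value of 4.89 and a 95th percentile of 5.67. The genotypes also differed in the sex-linked genes. Xist, the RNA of the inactive X chromosome, had a mean of 12.44 in knock-out and 4.64 in wild-type cells, and the Y-linked Uty had means of 4.82 and 10.03 in the same order. Every knock-out array differed from every wild-type array in both, so genotype and this difference cannot be told apart in any result given here.

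The promoter windows of the regulators that changed most are shown here because these genes fell together. They are RefSeq sequences of build GRCm38.p6, 250 bases before to 50 bases after an annotated start, 5′ to 3′. The table held 16 such windows for 9 of the 10 genes, with several starts for some, and none for En2. Capitals mark matches, on either strand, to 1 of 6 motifs: TAATTA (homeodomain core), TAATCC (Otx), GTAAACA (forkhead), GACCACCC (Gli), ACAATG (Sox) and CTTTGAT (TCF/LEF).
En1, chr1:120602237-120602536, plus strand: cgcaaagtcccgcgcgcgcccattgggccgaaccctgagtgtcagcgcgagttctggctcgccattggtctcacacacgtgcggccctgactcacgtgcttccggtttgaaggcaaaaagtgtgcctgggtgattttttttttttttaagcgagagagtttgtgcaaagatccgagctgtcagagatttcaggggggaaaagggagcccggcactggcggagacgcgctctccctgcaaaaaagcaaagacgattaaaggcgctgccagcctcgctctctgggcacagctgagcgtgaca
Foxa1, chr12:57546062-57546361, minus strand: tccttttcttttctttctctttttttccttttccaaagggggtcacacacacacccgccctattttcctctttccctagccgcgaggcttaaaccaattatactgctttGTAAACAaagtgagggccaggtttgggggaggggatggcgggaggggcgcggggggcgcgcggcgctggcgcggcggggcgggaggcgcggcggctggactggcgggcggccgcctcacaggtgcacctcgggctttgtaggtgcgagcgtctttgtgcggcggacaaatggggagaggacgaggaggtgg
Foxa2, most upstream start, chr2:148046920-148047219, minus strand: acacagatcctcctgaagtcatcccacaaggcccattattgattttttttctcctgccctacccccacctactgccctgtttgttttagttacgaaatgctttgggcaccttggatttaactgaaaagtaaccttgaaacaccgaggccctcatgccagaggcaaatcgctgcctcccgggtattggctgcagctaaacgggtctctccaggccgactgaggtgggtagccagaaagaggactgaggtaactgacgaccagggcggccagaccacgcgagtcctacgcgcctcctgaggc
Foxa2, most downstream start, chr2:148045415-148045714, minus strand: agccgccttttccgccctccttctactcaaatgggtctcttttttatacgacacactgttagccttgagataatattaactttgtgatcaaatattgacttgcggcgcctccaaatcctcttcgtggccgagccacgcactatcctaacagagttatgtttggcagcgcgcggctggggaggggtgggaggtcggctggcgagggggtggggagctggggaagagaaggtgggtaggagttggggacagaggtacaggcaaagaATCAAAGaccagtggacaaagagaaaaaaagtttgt

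The En1 window held none of the 6 motifs, and it had 23 CpG dinucleotides against a median of 7 over all 32851 windows. The Foxa1 window held the forkhead motif at offset -141 from the start, and 3.65% of all windows held it. Of the 3 Foxa2 windows, the most downstream held the reverse complement of the TCF/LEF motif 14 bases after the start, and 3.73% of all windows held that motif. No printed window held more than 1 match. The motifs were picked with the sequences in view. A match is only a run of letters, and its absence from a window says nothing about the factor.

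**Figure D1:**
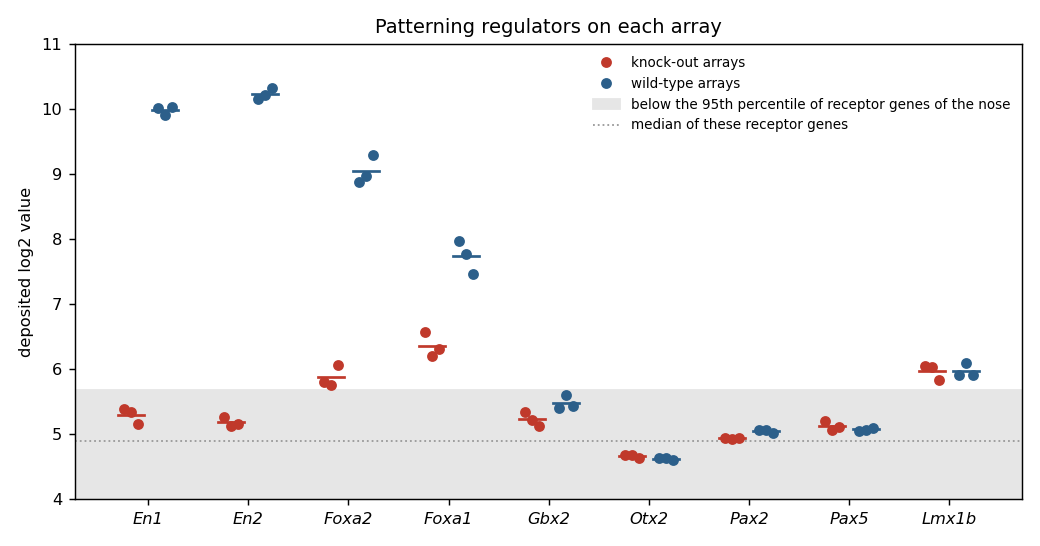
Deposited log2 value (y axis) of each of the 9 measured regulators (x axis) on every array, with knock-out arrays in red left of wild-type arrays in blue and a bar at each mean of 3. The grey band ends at 5.67, the 95th percentile of the receptor genes of the nose, and the wild-type arrays stand far above it for En1, En2, Foxa2 and Foxa1.

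En1, En2, Foxa2 and Foxa1 fell in knock-out cells, and the remaining regulators lay near background in both genotypes or differed little. In all, 5 of the 9 were lower and 4 were not called (adjusted p under 0.05 in limma, over all genes). Of all genes, 17.6% were lower by that test and 31.6% changed. At least 2-fold falls were found for 4 of the 9, against 2.27% of all genes. None of the 9 was higher, by the adjusted test or at an unadjusted p under 0.05. The median log2 fold change (knock-out minus wild type) was -0.25 over the 9 and -0.01 over all genes.

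En1 and En2 are closely related homeodomain repressors of the midbrain and anterior hindbrain. En1 had log2 values of 5.39, 5.33 and 5.15 on the knock-out arrays, against 10.02, 9.91 and 10.03 on the wild-type arrays. En2 had 5.27, 5.12 and 5.15 on the knock-out arrays, against 10.15, 10.22 and 10.32 on the wild-type arrays. For both genes the genotypes were separated by a gap many times wider than either group. En1 averaged 5.29 ± 0.126 in knock-out and 9.99 ± 0.0657 in wild-type cells (SD, n = 3 each), a log2 fold change of -4.70 (SE 0.08, limma adjusted p = 3.58e-11). En2 averaged 5.18 ± 0.0793 in knock-out and 10.23 ± 0.0855 in wild-type cells, a log2 fold change of -5.05 (SE 0.07, limma adjusted p = 1.44e-11). On a linear scale En1 was 25.9-fold lower (95% interval 23.0 to 29.2) and En2 33.2-fold lower (29.7 to 37.0).

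All 3 knock-out arrays lay under the 95th percentile of the receptor genes for both engrailed genes. The knock-out mean stood at percentile 84.9 of those genes for En1 and 79.0 for En2. The folds are therefore limited by background, and the arrays do not show whether any engrailed RNA was left. In bulk RNA, fewer cells that make a transcript and less of it per cell cannot be told apart.

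Foxa2 and Foxa1 are pioneer forkhead factors of the floor plate and, outside the nervous system, of endoderm. Foxa2 had log2 values of 5.80, 5.75 and 6.06 on the knock-out arrays, against 8.87, 8.97 and 9.29 on the wild-type arrays. Foxa1 had 6.57, 6.20 and 6.31 on the knock-out arrays, against 7.97, 7.77 and 7.46 on the wild-type arrays. The genotypes did not overlap for either gene, with the narrower gap for Foxa1. Foxa2 averaged 5.87 ± 0.168 in knock-out and 9.04 ± 0.216 in wild-type cells, a log2 fold change of -3.17 (SE 0.12, limma adjusted p = 1.14e-08). That is 9.03-fold lower (95% interval 7.55 to 10.8). Foxa1 averaged 6.36 ± 0.187 in knock-out and 7.74 ± 0.254 in wild-type cells, with a log2 fold change of -1.38 (SE 0.13, limma adjusted p = 1.79e-05). It was 2.60-fold lower (2.12 to 3.17). Unlike the engrailed genes, both stayed above the 95th percentile of the receptor genes on every knock-out array, Foxa2 by a small margin. Background may therefore limit the fold of Foxa2 as well.

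The titles number the replicates of both genotypes 1 to 3, and the difference within each number was of one sign for these 4 genes. Knock-out minus wild type was -4.63, -4.58 and -4.88 for En1 and -4.88, -5.10 and -5.17 for En2. It was -3.08, -3.22 and -3.23 for Foxa2 and -1.40, -1.57 and -1.16 for Foxa1. No single pair of arrays carried any of the 4 falls.

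Otx2 and Gbx2, the homeodomain factors whose opposed domains place the isthmus, were both within the range of the receptor genes. Otx2 had log2 values of 4.68, 4.68 and 4.63 on the knock-out arrays, against 4.63, 4.63 and 4.60 on the wild-type arrays. Gbx2 had 5.34, 5.22 and 5.12 on the knock-out arrays, against 5.40, 5.60 and 5.43 on the wild-type arrays. The Otx2 arrays overlapped between genotypes and the Gbx2 arrays did not, though the highest knock-out array and the lowest wild-type array of Gbx2 nearly met. Otx2 did not pass (log2 fold change 0.04, 95% interval -0.09 to 0.17, limma adjusted p = 0.683). Gbx2 passed as lower with a small difference (log2 fold change -0.25, SE 0.08, limma adjusted p = 0.035). This call was lost without knock-out replicate 2 (adjusted p = 0.0888), knock-out replicate 3 (0.128), wild-type replicate 2 (0.126) or wild-type replicate 3 (0.0553), and all 6 arrays lay under the 95th percentile of the receptor genes.

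Pax2 and Pax5, paired-box factors that act early at the isthmus, lay in the same range. Pax2 had log2 values of 4.93, 4.92 and 4.94 on the knock-out arrays, against 5.07, 5.05 and 5.02 on the wild-type arrays. Pax5, also the identity factor of B cells, had 5.20, 5.06 and 5.10 on the knock-out arrays, against 5.05, 5.06 and 5.09 on the wild-type arrays. The knock-out arrays of Pax2 were all slightly below the wild-type arrays, while those of Pax5 overlapped with them. Neither passed (log2 fold change -0.11, 95% interval -0.24 to 0.01, adjusted p = 0.172 for Pax2 by limma, and 0.05, interval -0.09 to 0.19, adjusted p = 0.615 for Pax5). Counting Pax2 and Gbx2, all knock-out arrays lay below all wild-type arrays for 6 of the 9 regulators and for 23.7% of all genes. In either direction, 42.3% of all genes had genotypes that did not overlap.

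Lmx1b, a LIM homeodomain factor of the isthmus and of dopaminergic and serotonergic neurons, had log2 values of 6.05, 6.03 and 5.84 on the knock-out arrays, against 5.91, 6.09 and 5.90 on the wild-type arrays. The arrays of the genotypes were intermingled just above the background gauge. Its log2 fold change was 0.01 (95% interval -0.18 to 0.19, limma adjusted p = 0.972), and its sign turned under 6 of the alternatives. With Otx2, Pax2, Pax5 and Lmx1b at or near background in wild-type cells as well, the interval limits what changed on the array and not what a low transcript may have done.

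**Figure D2:**
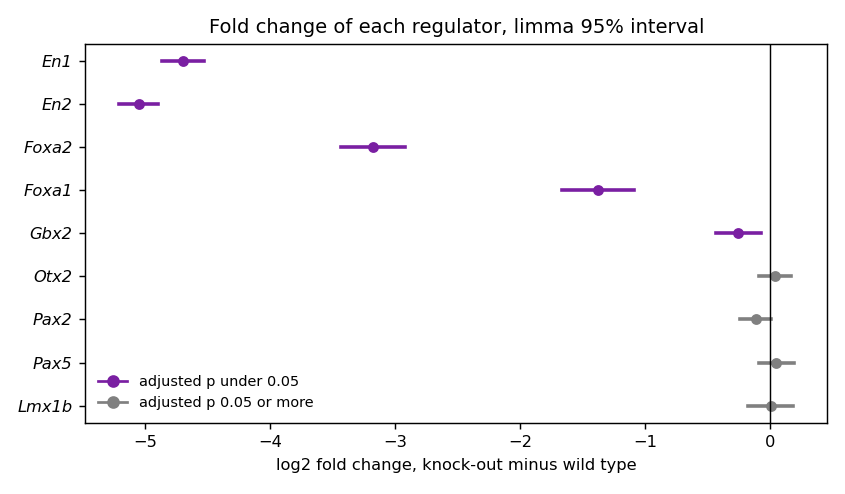
Log2 fold change of each measured regulator, knock-out minus wild type (x axis), with the 95% interval of the limma fit, in purple where the adjusted p was under 0.05. En2, En1, Foxa2 and Foxa1 stand at -5.05, -4.70, -3.17 and -1.38, and the other 5 lie between -0.25 and 0.05.

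Related regulators were set against each other within each array, which asks whether they moved by unequal amounts. The log2 value of Foxa1 minus that of Foxa2 was 0.77, 0.45 and 0.24 on the knock-out arrays, against -0.91, -1.20 and -1.82 on the wild-type arrays. The 2 groups of arrays did not overlap, and the difference between their means was 1.80, so the measured fall was larger for Foxa2. Foxa1 had the lower wild-type mean (7.74 against 9.04 for Foxa2), and the knock-out means (6.36 for Foxa1 and 5.87 for Foxa2) were not far above the background gauge. Foxa1 thus had less room to fall. En1 minus En2 was 0.12, 0.21 and 0.00 on the knock-out arrays, against -0.13, -0.31 and -0.29 on the wild-type arrays, a difference of 0.36. Since the knock-out arrays of both engrailed genes lay under the background gauge, this does not show which of them fell further. Otx2 minus Gbx2 differed by 0.29 and Pax2 minus Pax5 by -0.17 between the genotypes, with every array of these genes under the gauge, so no unequal change is read from them. Each of the 4 differences had an exact two-sided permutation p of 0.1 (0.1 adjusted over the 4), which is the smallest p that 3 against 3 arrays allow.

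Pattern likeness was measured as the root mean square difference between log2 values centred on each gene's own mean over the 6 arrays. The gene closest to En1 was Mgst1, a microsomal glutathione transferase (0.131 on the log2 scale), then Rab3b, a vesicle GTPase (0.161), and Podxl, a sialomucin (0.168). Closest to En2 were the Y-linked Uty (0.124), En1 (0.196) and Mgst1 (0.21). Foxa2 was closest to Hlf, a bZIP transcription factor (0.135), Kcnab1, a potassium channel subunit (0.149), and Prune2 (0.157). Foxa1 was closest to Zhx2 (0.0841), Arsj (0.109) and P2rx7, an ATP-gated channel (0.114). With 2 groups of 3 arrays, this likeness mostly reflects the size of the difference between genotypes.

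Genes beside the 4 regulators on the chromosome were read from the order in the reference gene table. En2 lies on chromosome 5 between Insig1 and Cnpy1. Cnpy1, known in zebrafish as a regulator of FGF receptor signalling at the midbrain-hindbrain border, had log2 values of 5.67, 5.70 and 5.52 on the knock-out arrays, against 7.09, 7.14 and 7.09 on the wild-type arrays. It fell by 1.48 on the log2 scale (SE 0.07, limma adjusted p = 6.47e-08), with no overlap between genotypes. Insig1, a sterol sensor on the other side of En2, did not pass (log2 fold change 0.26, adjusted p = 0.0874). En1 on chromosome 1 lies between Marco (log2 fold change -0.02, adjusted p = 0.913) and Insig2 (-0.16, adjusted p = 0.111), neither of which passed.

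Foxa2 on chromosome 2 lies between Pax1, which did not pass (log2 fold change 0.06, adjusted p = 0.729), and the somatostatin receptor Sstr4, which fell by 0.73 (SE 0.12, limma adjusted p = 0.000906). On chromosome 12 the nearest measured genes to Foxa1 were Slc25a21 (-0.03, adjusted p = 0.834), past 2 unmeasured genes, and Ttc6, which fell by 0.47 within background (means 4.71 in knock-out and 5.18 in wild-type cells, adjusted p = 0.00379). Pax9, the next measured gene beyond Slc25a21 and picked after its values were seen, had means of 5.40 in knock-out and 6.37 in wild-type cells (log2 fold change -0.97, limma adjusted p = 0.000301). Over all 10 regulators, 6 of the 20 nearest measured neighbours were lower, 1 was higher and 13 did not pass, beside the 17.6% and 14.0% of all genes that were lower and higher.

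**Figure D3:**
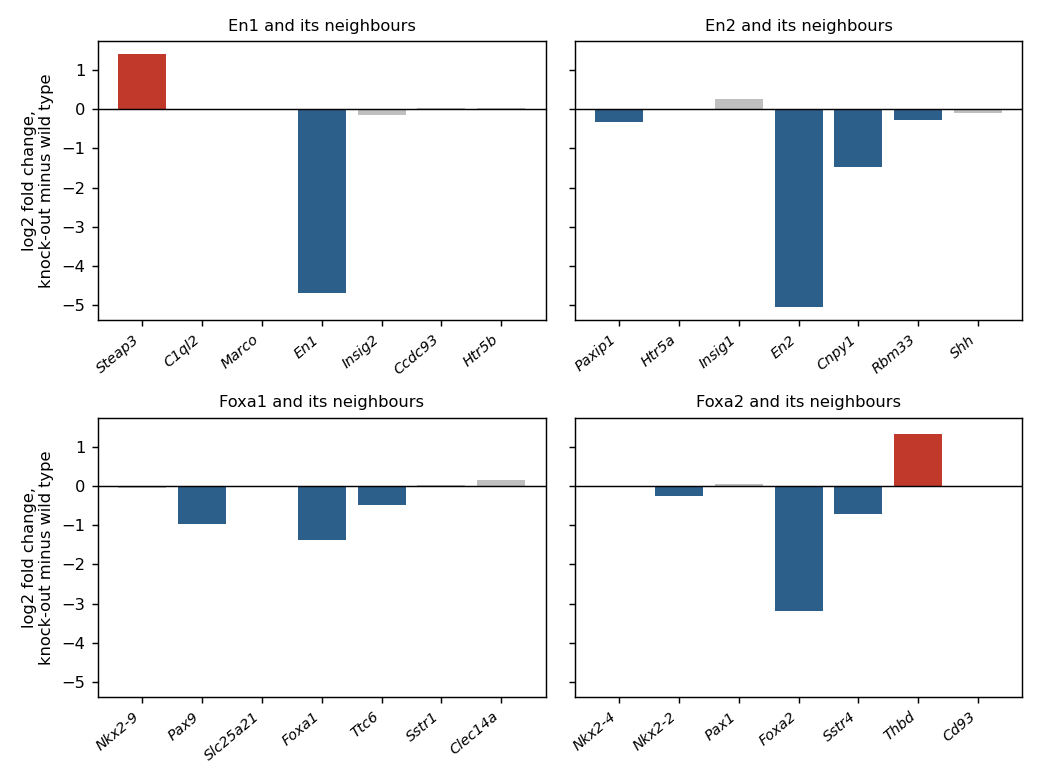
Log2 fold change, knock-out minus wild type (y axis), of En1, En2, Foxa1 and Foxa2 and of the 3 nearest measured protein-coding genes on either side, in gene order and without distances (x axis). Blue bars were lower, red bars higher and grey bars not called. Cnpy1 beside En2 stands at -1.48, while both nearest neighbours of En1 are grey.

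Genes known to work around these regulators were taken from 5 lists. Of 117 measured genes, 36 were higher, 23 lower and 58 not called, beside the 14.0% of all genes that were higher and the 17.6% that were lower (31.6% changed). The counts of the single lists are read beside those same shares, and nothing is called particular to a list. The median log2 fold change was 0.01, against -0.01 over all genes, and 50 of the 117 had both means under the background gauge. These genes thus moved in both directions. Where the mean of one genotype lay under that gauge, the fold is limited by background like those of En1 and En2. Among others, this holds for the knock-out means of Sox2, Cnpy1, Pax6, Gch1 and Msx2 and for the wild-type means of Spry2, Slit3 and Prdm16.

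Of the isthmic signals and their FGF feedback genes, 9 of 21 were higher and 5 lower. The ligands that define the organizer stayed low. Fgf8 had means of 5.67 in knock-out and 5.64 in wild-type cells (limma adjusted p = 0.843), and Wnt1 had 4.34 and 4.50 in the same order (adjusted p = 0.095). Fgf18, a related ligand, had log2 values of 9.79, 10.08 and 10.12 on the knock-out arrays, against 6.27, 6.55 and 6.11 on the wild-type arrays (log2 fold change 3.69, SE 0.12, adjusted p = 4.72e-09). The adhesion protein Flrt3, which binds FGF receptors, rose by 2.55 and Il17rd, an FGF antagonist, by 1.68. Dusp6, a phosphatase that FGF signalling induces, fell to 7.13 ± 0.0853 in knock-out cells, against 8.87 ± 0.19 in wild-type cells. Feedback genes of one pathway thus did not all move one way. Spry1, Spry2, Spry4 and Etv5 rose by 0.81, 1.12, 0.51 and 1.17, with both means of Spry4 under the background gauge. Etv4 did not pass (adjusted p = 0.0708), and Dusp6 fell by 1.74. Spry1, Spry2, Spry4, Etv4 and Etv5 were picked after their values were seen. So were the genes near background in this and the following paragraphs, Nr4a2, Otx1, Tle2, Tle3, Tle4, Tle6 and the progenitor marker Vim.

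Of the Shh and floor plate genes, 10 of 22 were higher and 4 lower. Shh itself was at background, with means of 5.02 in knock-out and 5.11 in wild-type cells (limma adjusted p = 0.546). Ntn1, the netrin that the floor plate secretes to attract axons, had log2 values of 7.42, 7.77 and 7.81 on the knock-out arrays, against 9.05, 9.20 and 9.42 on the wild-type arrays. It fell by 1.56 (SE 0.12, limma adjusted p = 3.82e-06), and the genotypes did not overlap. Ptch1, the Shh receptor and a target of the pathway, fell by 0.83, while Gli1, a further target, was at background in both genotypes (means 5.42 in knock-out and 5.37 in wild-type cells, adjusted p = 0.644). The guidance ligand Slit3 rose by 2.83 and Disp1, which releases Shh from cells, by 0.91.

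Among dopaminergic lineage genes 3 of 21 were higher, 5 lower and 13 not called. Th, the rate-limiting enzyme of dopamine synthesis, had means of 4.57 in knock-out and 4.62 in wild-type cells, and the dopamine transporter Slc6a3 had 5.05 and 4.98 in the same order. Neither passed (limma adjusted p = 0.712 for Th and 0.517 for Slc6a3), and both lay near the median of the receptor genes. Nr4a2, an orphan nuclear receptor of these neurons, was above background in both, at 8.07 ± 0.141 in knock-out and 7.88 ± 0.097 in wild-type cells (adjusted p = 0.126). Gch1, which makes the cofactor of Th, fell by 1.12 (means 5.16 in knock-out and 6.28 in wild-type cells), and Ebf3, a neuronal transcription factor, rose by 2.05. Msx2 and Dlk1 fell by 0.79 and 0.77.

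Other transcription factors of midbrain and hindbrain gave 8 higher, 4 lower and 18 uncalled genes of 30. Close relatives of the regulators were low in both genotypes: Pax8 had means of 5.24 in knock-out and 5.24 in wild-type cells, Foxa3 of 4.71 and 4.73, and Gbx1 of 4.89 and 4.98. Otx1, the relative of Otx2, was above background and fell by 0.64 (means 7.30 in knock-out and 7.94 in wild-type cells, limma adjusted p = 9.75e-05). Pax6, a factor of dorsal forebrain and hindbrain progenitors, fell by 1.69 to 5.44 ± 0.0367 in knock-out cells, against 7.12 ± 0.0853 in wild-type cells. The homeodomain factors Meis1 and Meis2 moved oppositely, by -2.25 and 2.14, and Irx3 rose by 2.36.

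Cofactors of the regulators gave 6 higher, 5 lower and 12 uncalled genes of 23. Tle1, a Groucho-type corepressor that engrailed proteins recruit, had means of 8.24 ± 0.132 in knock-out and 6.95 ± 0.0999 in wild-type cells (log2 fold change 1.29, SE 0.08, limma adjusted p = 9.35e-07). Its relatives moved both ways. Tle2 rose by 0.77 (limma adjusted p = 4.21e-05), Tle3 and Tle4 fell by 0.78 and 0.43, and Tle6 did not pass (adjusted p = 0.686). Pbx3, a homeodomain partner of engrailed proteins and a chromosome 2 neighbour of Lmx1b, rose by 1.93. Eya1, a coactivator with phosphatase activity, rose by 1.97 and the zinc finger protein Prdm16 by 2.77.

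**Figure D4:**
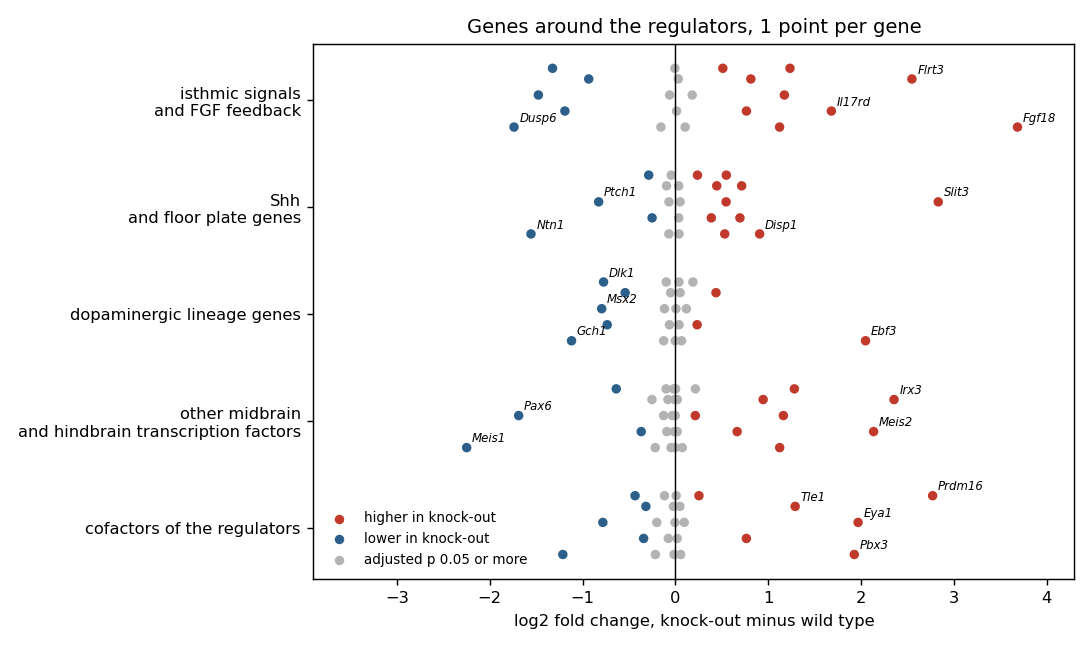
Log2 fold change, knock-out minus wild type (x axis), of the measured genes of 5 lists around the regulators (y axis, spread vertically for legibility), in red where higher, blue where lower and grey where not called. Each list has points on both sides of 0, from Meis1 at -2.25 to Fgf18 at 3.69.

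Markers of other tissues that use the same regulators were measured beside them. All counts of this paragraph are read beside the 14.0% of all genes that were higher and the 17.6% that were lower. Of 18 markers of endoderm and notochord, where Foxa factors also act, 1 was higher and 1 lower, and 15 had both means under the background gauge. Gata6 rose by 1.87 (means 10.15 in knock-out and 8.28 in wild-type cells) and Epcam fell by 0.22 within background. The summed level of that list, as log2 of the sum of linear values, was 10.66 to 10.82 on the knock-out arrays and 9.78 to 9.87 on the wild-type arrays. Gata6 was the brightest gene of the list in both genotypes and weighs most in these sums, so they do not show a rise across the list. Sox17, Afp, Ttr and Alb were at background in both genotypes. All 13 measured B cell markers were under the gauge in both genotypes, and limma called none of them, nor was any at an unadjusted p under 0.05. Most markers of fibroblasts and meninges rose where En1, En2, Foxa1 and Foxa2 fell. Of 22, 19 were higher and 1 lower, and their summed log2 level was 15.40 to 15.46 on the knock-out arrays and 13.98 to 14.14 on the wild-type arrays. Of 19 progenitor markers 2 were higher and 8 lower, with sums of 13.98 to 14.03 and 14.27 to 14.39 in the same order. The uncalled Vim was the brightest of the 19 in both genotypes (means 13.52 in knock-out and 13.53 in wild-type cells). It weighs most in these sums, which therefore show little of the falls of Sox2 and Nes. Endothelial markers gave 5 higher and 1 lower gene of 12, with sums of 10.63 to 10.76 on the knock-out arrays and 8.61 to 8.75 on the wild-type arrays. Among them Erg and Tek rose by 4.60 and 3.14 against wild-type means under the gauge. Erg had the highest knock-out mean of the list (9.97), so it weighs most in the knock-out sums. Of the 12, 7 had both means under the gauge. Pecam1, Cdh5, Cldn5, Emcn and Tie1 were among these and were not called. Neuron markers gave 1 higher and 2 lower genes of 14, and microglia markers 1 lower of 12. The part of these lists in the results above was not tested.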

How the data were processed

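RNA of 3 knock-out and 3 wild-type samples was measured on 1-colour Affymetrix Mouse Gene 1.0 ST arrays, from 250 ng of total RNA each. The deposited table holds log2 values per probe set, a scale judged from their range. The submitters' processing notes name Partek without a version, while background correction, normalization and probe summarization are not stated by the labels or the table. No detection calls were used, so receptor genes of the nose served as the background gauge. The number of arrays limits the precision.

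Of 35556 probe sets, 21789 had 1 symbol in GEO's platform annotation, 1621 several and 12146 none. Of those with 1 symbol, 21698 matched the reference table (GRCm38.p6) by gene ID, which was used for names, chromosomes and gene order. The brightest probe set over the 6 arrays stood for each gene. The comparison used limma 3.58.1 under R 4.3.3 (functions lmFit and eBayes, no block, 4 residual degrees of freedom before moderation), with Benjamini-Hochberg adjustment over all 19938 genes. "Rose", "fell", "higher" and "lower" of a group mean an adjusted p under 0.05.

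The regulators and the lists were chosen with earlier results of these data known, so counts over them are descriptions; the background gauge and the 6 motifs were likewise chosen late. Named were the 10 regulators and the up to 4 largest called changes of each of the 5 pathway lists and the kidney list. The 3 genes most alike to each regulator called at 2-fold or more were also named. Nearest neighbours were named for En1, En2, Foxa1 and Foxa2. From the other marker lists and the sex-linked genes, not all such changes were named. Fabp7, Postn, Col1a2 and Map2 are among those left out. Other exceptions are marked. The planned difference of Lmx1a and Lmx1b was not run. Replicate numbers were checked as pairs by the correlation across genes of deviations from genotype means. It was 0.187 to 0.288 for equal numbers, so every same-number pair exceeded 0.1, and -0.185 to -0.00466 for unequal ones. Deviations cancel over the arrays of a genotype, so negative values follow from the positive ones and add nothing. The main fit took no account of the pairs, and the block was run as an alternative. The step was tested on simulated data with 19938 genes: of 50 genes each changed by 0.5, 1, 2 and 4 on the log2 scale, 74%, 94%, 100% and 100% were recovered, with 7 false calls. Only 200 genes were changed there, and the noise was drawn independently for each array. In the data 31.6% of genes were called, so these rates may not carry over.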

Additional observations from a re-analysis of the deposited data

How the results depend on the processing

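The 16 alternatives were quantile normalization, centring, 2 filters on dim genes, averaging probe sets, robust moderation with a trend on intensity, no moderation, array weights, the replicate block, an adjusted p under 0.01 and each array left out in turn. En1, En2, Foxa2 and Foxa1 kept their direction and call in all 16. Their log2 fold changes ranged over -4.75 to -4.63, -5.10 to -5.01, -3.27 to -3.05 and -1.51 to -1.26, and their highest adjusted p values were 0.00025, 0.000161, 0.00154 and 0.0144. The count of lower regulators was 5, and 4 to 5 with an array left out. The count of changed genes was 6296, and 5485 to 5803 with an array left out. With the replicate number as a block, 7000 genes were called, 6279 of them among the 6296, and 64 pathway genes against 59. The replicate block changed no regulator's call (Gbx2 adjusted p = 0.0279). The call of Gbx2 was also lost without moderation (adjusted p = 0.138) and at the stricter threshold, and its adjusted p ranged from 0.016 to 0.138. Pax2 passed without moderation (adjusted p = 0.0178). Signs turned, with no call, for Lmx1b under quantile normalization (-0.038), centring (-0.040) and 4 of the 6 left-out arrays (range over all 6 -0.032 to 0.074) and for Otx2 under centring (-0.0055). The causes were not tested. The differences between related regulators kept their sign in all alternatives run for them, and with an array left out En1 minus En2 spanned 0.30 to 0.41 and Foxa1 minus Foxa2 was at least 1.54. Signal over background limits the folds of En1 and En2 and any statement on Otx2, Pax2, Pax5 and Gbx2, the comparison of En1 with En2 included. It may also limit the fold of Foxa2, whose knock-out arrays lay just above the gauge, and the comparison of Foxa2 with Foxa1.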

Other observations

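Genes that work with Pax2 outside the brain were measured although Pax2 was at background. In the embryonic kidney Pax2 acts with Eya1, Six2, Osr1 and Emx2. Six2 averaged 10.52 ± 0.143 in knock-out and 5.27 ± 0.17 in wild-type cells (SD, n = 3 each; log2 fold change 5.25, limma adjusted p = 1.01e-10), a fold limited by background in wild-type cells. Emx2 averaged 8.34 in knock-out and 7.28 in wild-type cells, a rise of 1.06. Osr1 was bright in both, at 11.44 in knock-out and 11.96 in wild-type cells, a fall of 0.52. Of 13 measured markers of kidney epithelium and its precursors, 3 were higher and 1 lower, beside 14.0% and 17.6% of all genes. Both means were under the background gauge for 9 of the 13, among them Cdh16, Umod and Slc12a1. Six2, Eya1, Osr1 and Emx2 are also expressed in other embryonic tissues.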
